A study of Oryza sativa with 6 samples.

Results

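This account is about 4 rice genes for proteins that carry zinc, copper or cadmium across membranes: OsHMA3 (BGIOSGA024568), OsHMA4 (BGIOSGA007732), OsZIP6 (BGIOSGA018749) and a gene described as a zinc transporter (BGIOSGA025423). They were taken by identifier from a table of 42031 features, and all 4 were found and tested. OsHMA3 is described in the table as heavy metal transporter 3. OsHMA4 and OsZIP6 are described through the rice loci Os02g0196600, a copper-transporting ATPase that sets copper in the grain, and Os05g0164800, a transition metal transporter. BGIOSGA025423 carries no locus or gene name. The libraries came from roots of wild-type rice in a greenhouse with 12 h of light at 30 °C and 12 h of dark at 28 °C, all under 10 µM cadmium. In the group called Cd (3 libraries) nothing else was given, and in the group called Fo+Cd (3 libraries) 0.5% Fo10 was added, an agent the labels do not define. The labels give neither the cultivar, the plants' age nor the length of treatment. No group lacked cadmium, so the response of these genes to cadmium was not measured. Whether the replicates are separate cultures is not stated in the labels, and the p-values below cover only the spread among these libraries, which could be technical.

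Plant cells hold metals in check with 2 opposed kinds of transporter. P1B-type ATPases, the HMA family, spend ATP to push metal ions out of the cytosol, into the vacuole, an organelle or the space outside the cell. ZIP proteins mostly move divalent ions such as zinc and iron the other way, into the cytosol. In rice roots OsHMA3 sits in the vacuole membrane and stores cadmium and zinc in the root, which limits what reaches the shoot, and OsHMA4 does the same for copper.

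Transcript levels were the authors' TPM, which are scaled per transcript length and can therefore be set side by side between genes. TPM keeps no record of depth, so the number of reads behind a value is unknown and no counting interval or detection floor is given. Between 20861 and 21126 features reached 1 TPM in a library. As a check of the tissue, the silicon efflux transporter of roots (BGIOSGA011605) stood at 641.9 to 1120 TPM, while 27 photosynthesis features, which mark green shoot, summed to 23.6 to 33.2 TPM in a library. In whole roots, a change in the number of cells that use a gene and a change in RNA per cell cannot be told apart.

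Of the 4 genes, the zinc transporter BGIOSGA025423 was higher with Fo10 and the other 3 did not pass the test. It stood at 71.5, 66.9 and 63.2 TPM in Cd replicates 1, 2 and 3 and at 93.7, 100.7 and 102.8 TPM in Fo+Cd replicates 1, 2 and 3. The groups did not overlap, and a gap of 22.2 TPM lay between the highest Cd and the lowest Fo+Cd library. The mean rose from 67.2 ± 4.17 to 99.1 ± 4.74 TPM (SD, n = 3 each), a ratio of 1.47. On the log2(TPM + 1) scale the difference was 0.55 (SE 0.0853, 95% interval 0.35 to 0.76, limma adjusted p = 0.0214 over 21166 features). Over all tested features, 4.54% had a log2 difference at least as high. The call was lost when Cd replicate 1 or 3 was left out (adjusted p = 0.0525 and 0.104) and when replicate 2 or 3 of Fo+Cd was (0.071 and 0.115). It was also lost in limma with the replicate number as a block (adjusted p = 0.08). The log2 difference was 0.51 to 0.60 whichever library was left out. The gene was lower in Cd than in Fo+Cd whichever library was left out.

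With 1 of the 4 genes called, the share over all tested features was 2.45% in either direction, 1.72% higher and 0.723% lower. These shares stand for 518 calls, 365 higher and 153 lower, and they moved with single libraries. There were 310, 726 and 240 calls without Cd replicates 1, 2 and 3, and 269, 253 and 189 without the same of Fo+Cd. Calls of lower level numbered 359 without Cd replicate 2 and 26 without Cd replicate 3. The descriptions of all 4 cite a database, and of the tested gene models so described 2.19% were called, against 1.24% of those with no description. Of those described without a source 91.2% were called, so a description of that kind goes with being called and is marked where it appears below. With 4 genes, chosen when results of these data were already known, the count describes these genes and no class of transporters.

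**Figure D1:**
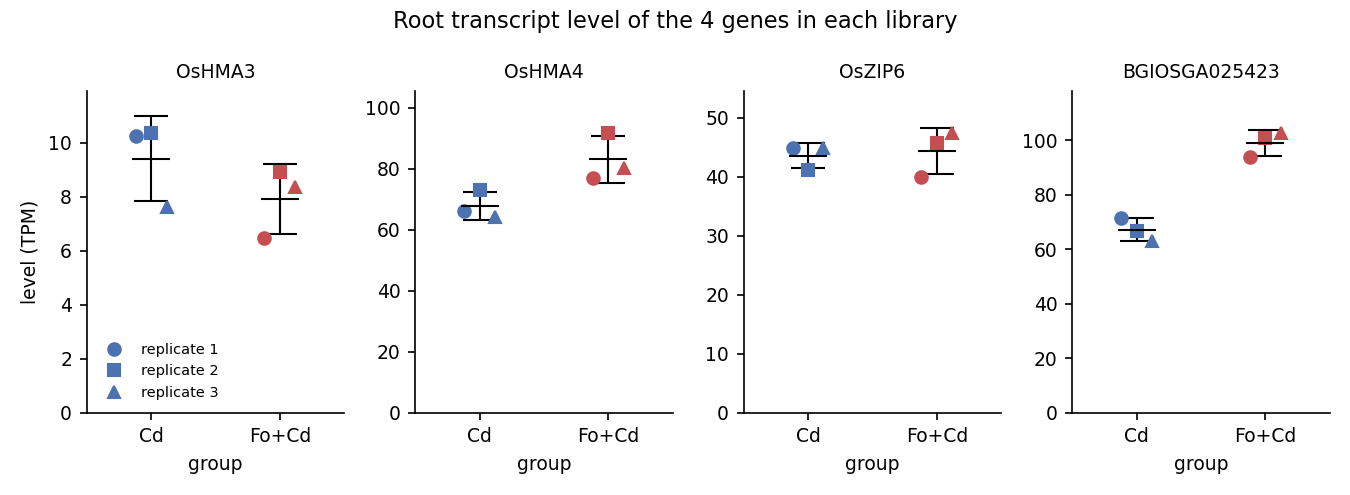
TPM of the 4 genes (vertical axes, each from 0) in the 3 Cd and 3 Fo+Cd libraries; symbols are libraries by replicate number, long bars the group mean and error bars the SD (n = 3). BGIOSGA025423 has all Fo+Cd libraries at 93.7 TPM or more and all Cd libraries at 71.5 TPM or less, OsHMA4 has a narrow gap of 3.80 TPM, and the groups overlap for OsHMA3 and OsZIP6.

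OsZIP6, the other member of the ZIP family, differed least between the groups. Its levels were 44.8, 41.2 and 44.9 TPM in Cd replicates 1, 2 and 3 and 40.0, 45.7 and 47.5 TPM in Fo+Cd replicates 1, 2 and 3. The lowest and the highest library were both in Fo+Cd, and the Cd libraries lay between them. The group means were 43.6 ± 2.15 and 44.4 ± 3.91 TPM (SD, n = 3 each). The log2 difference was 0.02 (SE 0.0942, adjusted p = 0.935), with a 95% interval that corresponds to 0.871 to 1.19 times the Cd level on the TPM + 1 scale. That interval leaves out a change of the size measured for BGIOSGA025423, whose own interval was 1.28 to 1.69 times.

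OsHMA4, the copper ATPase, was higher in each Fo+Cd library than in any Cd library without passing the test. It was measured at 66.2, 73.1 and 64.3 TPM in Cd replicates 1, 2 and 3 and at 76.9, 91.8 and 80.3 TPM in Fo+Cd replicates 1, 2 and 3. The means were 67.9 ± 4.64 and 83.0 ± 7.82 TPM (SD, n = 3 each), a ratio of 1.22. The log2 difference of 0.28 (SE 0.0993, 95% interval 0.05 to 0.52) had an unadjusted p of 0.0236 and an adjusted p of 0.231. Groups that do not overlap were common in this table: 21.3% of tested features had them, 11.3% with Fo+Cd above and 10.0% with Cd above. An unadjusted p under 0.05 was reached by 15.4% of features.

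OsHMA3, the cadmium ATPase, was the least abundant and the most variable of the 4. It was at 10.2, 10.4 and 7.61 TPM in Cd replicates 1, 2 and 3 and at 6.47, 8.92 and 8.34 TPM in Fo+Cd replicates 1, 2 and 3. Cd replicate 3 lay within the Fo+Cd range, so the groups overlapped. The means were 9.41 ± 1.56 and 7.91 ± 1.28 TPM (SD, n = 3 each), and the SD came to 16.6% and 16.2% of them. For the other 3 genes it was between 4.78% and 9.42%. The log2 difference was -0.22 (SE 0.168, adjusted p = 0.574). Its 95% interval, 0.652 to 1.13 times the Cd level on the TPM + 1 scale, holds both a fall and a rise, so these libraries neither show a change of OsHMA3 nor show that it held steady.

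**Figure D2:**
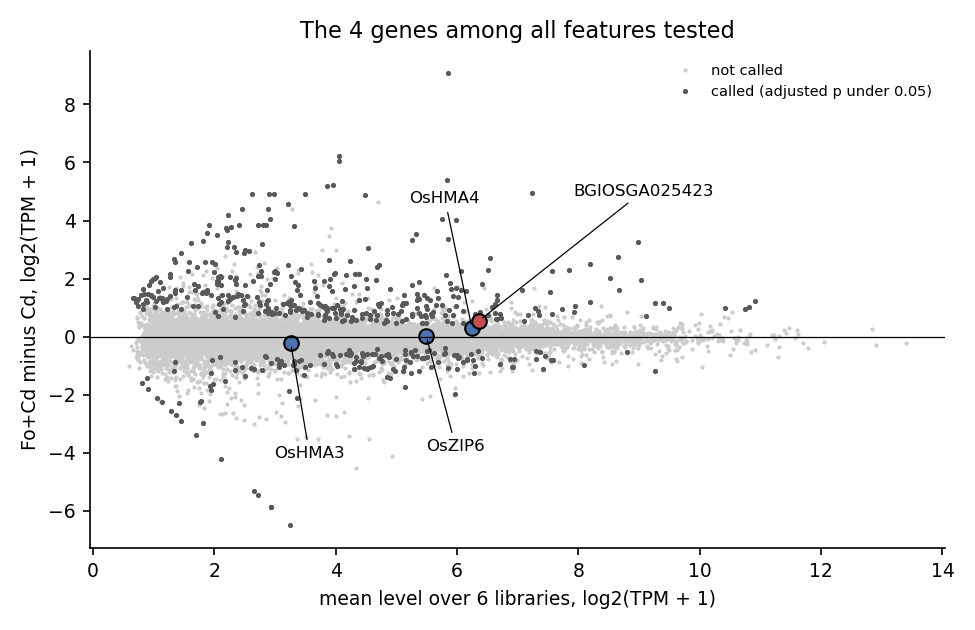
Difference between groups (Fo+Cd minus Cd, log2(TPM + 1), vertical axis) against the mean level over the 6 libraries (horizontal axis) for 21166 tested features; dark points were called by limma at an adjusted p under 0.05. Of the 4 labelled genes BGIOSGA025423 (red) is called, at 0.55, and OsHMA4 (0.28), OsZIP6 (0.02) and OsHMA3 (-0.22, all blue) are not.

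Within each group the levels were set in order. In Cd, OsHMA4 and BGIOSGA025423 could not be ordered, since their libraries overlapped (64.3 to 73.1 against 63.2 to 71.5 TPM). OsZIP6 followed below both, and OsHMA3 came last, each with no overlap with the gene above it. In Fo+Cd, the lowest value of BGIOSGA025423, 93.7 TPM, was above the highest of OsHMA4, 91.8 TPM, and the rest of the order was as in Cd. Among tested features, OsHMA3 ranked above 30.9% to 42.3% of them in a library and OsZIP6 above 77.2% to 81.2%. OsHMA4 ranked above 86.1% to 90.7%, and BGIOSGA025423 above 85.8% to 91.9%.

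Since each library measures all 4 genes at once, the level of one relative to another could be followed library by library. The ratio of OsHMA3 to OsHMA4 TPM, the cadmium ATPase over the copper ATPase, was 0.155, 0.142 and 0.118 in Cd replicates 1, 2 and 3. In Fo+Cd replicates 1, 2 and 3 it was 0.0841, 0.0971 and 0.104. Every Fo+Cd library was below every Cd library, although OsHMA3 alone overlapped between the groups. The mean ratio was 0.138 ± 0.0185 without and 0.0951 ± 0.01 with Fo10 (SD, n = 3 each). As a difference of log2(TPM + 1), OsHMA3 minus OsHMA4 changed by -0.51 from Cd to Fo+Cd (exact permutation p = 0.1, two-sided, adjusted p = 0.15 over 6 pairs).

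Between the ZIP genes, the ratio of OsZIP6 to BGIOSGA025423 TPM was 0.627, 0.616 and 0.711 in Cd replicates 1, 2 and 3 and 0.427, 0.454 and 0.462 in Fo+Cd replicates 1, 2 and 3. The Fo+Cd libraries were again all lower, with means of 0.651 ± 0.052 and 0.448 ± 0.0185 (SD, n = 3 each). The log2 difference between the genes changed by -0.53 (exact permutation p = 0.1, adjusted p = 0.15). OsHMA3 against BGIOSGA025423 moved furthest, by -0.78, from a mean ratio of 0.14 ± 0.0176 to 0.0796 ± 0.00987 (exact permutation p = 0.1, adjusted p = 0.15). OsHMA4 against BGIOSGA025423 moved by -0.27 (exact permutation p = 0.1, adjusted p = 0.15), also without overlap.

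In the other 2 of the 6 pairs the groups overlapped. OsHMA4 minus OsZIP6 moved by 0.26 (exact permutation p = 0.2, adjusted p = 0.24) and OsHMA3 minus OsZIP6 by -0.25 (exact permutation p = 0.3, adjusted p = 0.3). With 3 libraries against 3 the smallest two-sided p is 0.1, so no pair could have passed 0.05. Over all pairs of tested features, 23.0% had groups that did not overlap. The 6 pairs share genes, so they are not separate measurements, and 3 of the 4 without overlap include the called gene.

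**Figure D3:**
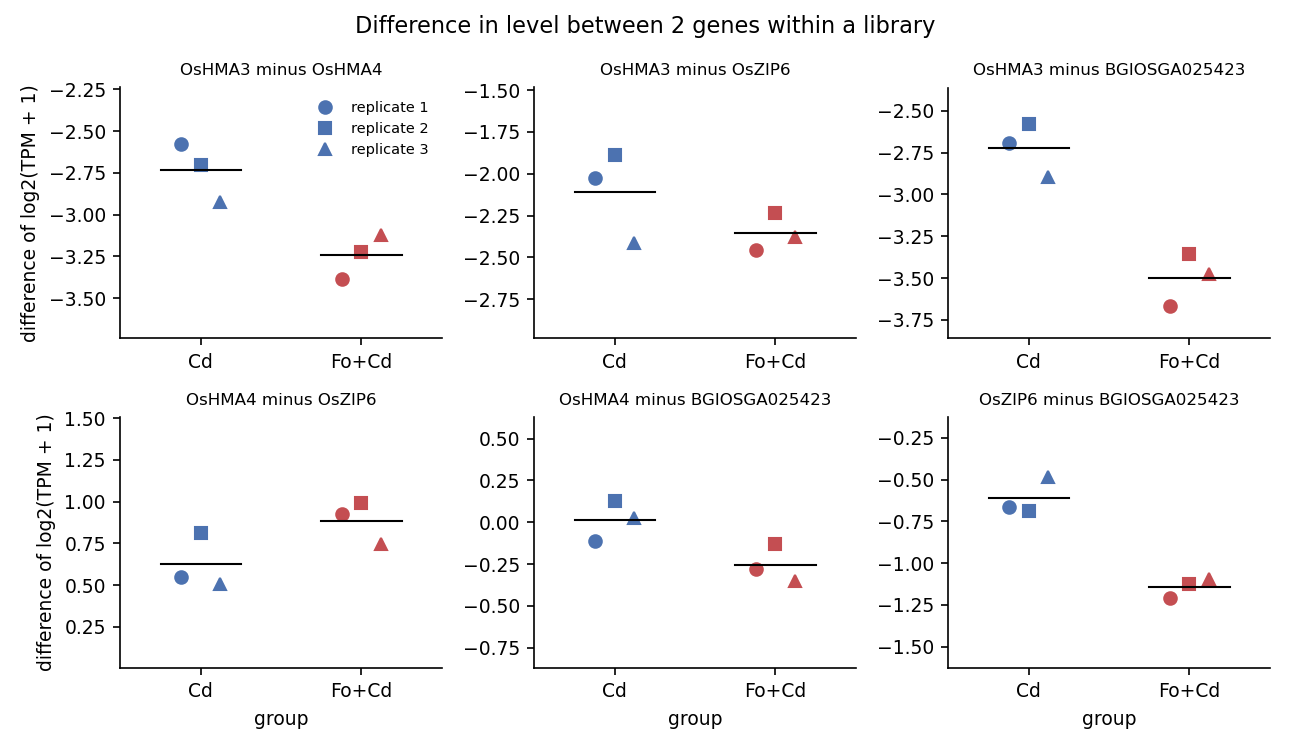
Difference of log2(TPM + 1) between 2 of the 4 genes within each library (vertical axes, all spanning the same range but centred on each pair), by group; symbols are libraries by replicate number and lines are group means. Fo+Cd lies below Cd without overlap for OsHMA3 minus OsHMA4, OsHMA3 minus BGIOSGA025423, OsHMA4 minus BGIOSGA025423 and OsZIP6 minus BGIOSGA025423, and the groups overlap in the other 2 pairs.

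The surrounding metal genes were taken from 8 lists of gene names and descriptions, which hold 30 genes with the 4 above. Of these, 27 were tested. In all 3 were called higher (1.72% of all tested features), 1 lower (0.723%) and 23 not called. The number called was 3 without Cd replicate 1 or 2, 2 without replicate 1 of Fo+Cd, and 1 without Cd replicate 3 or without replicate 2 or 3 of Fo+Cd. The median log2 difference was 0.09, against 0.00 over all tested features. Without the 2 described without a source, 1 of 25 was called higher and 1 lower, and the median was 0.03. The 3 genes below the filter were a Ctr copper transporter (BGIOSGA004530, at most 0.99 TPM), an iron-deoxymugineic acid transporter (BGIOSGA000556, at most 0.43 TPM) and a heavy metal-associated protein (BGIOSGA008822, listed at 0 in every library).

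Among 4 ZIP genes, 2 were called higher and 2 were not called (median log2 difference 0.29), where 1.72% of all tested features were called higher. Of the 2 called, IRT2 is described without a source, and 91.2% of gene models so described were called. Without IRT2 the log2 differences were 0.55 (BGIOSGA025423), 0.02 (OsZIP6) and -0.21 (BGIOSGA010542). IRT2 (BGIOSGA010094), an iron-regulated transporter described without a source, was at 5.38, 3.97 and 5.75 TPM in Cd replicates 1, 2 and 3 and at 10.4, 11.1 and 14.6 TPM in Fo+Cd replicates 1, 2 and 3. The groups did not overlap (log2 difference 1.11, SE 0.178, adjusted p = 0.0245). Its call was lost without any one library except Cd replicate 2 (adjusted p 0.0576 to 0.097). Beyond the genes of this account, only those with a matching name or description entered the list, and 16550 tested gene models had no description. The most abundant of the 4 listed was BGIOSGA010542, described by its Arabidopsis counterpart as zinc transporter 11. It was at 224.3 ± 9.92 TPM without and 194.6 ± 21.1 TPM with Fo10 (SD, n = 3 each, log2 difference -0.21, adjusted p = 0.398). Its groups overlapped, and its difference was the 1 of the 4 below 0.

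None of the 6 P1B-type ATPases was called by limma (1 with an unadjusted p under 0.05, OsHMA4; median log2 difference 0.11). The most abundant was BGIOSGA016903, described as loading copper into the xylem, at 144.8, 201.2 and 147.9 TPM in Cd replicates 1, 2 and 3 and at 147.2, 203.0 and 182.1 TPM in Fo+Cd replicates 1, 2 and 3. Its spread within each group was wider than the difference between them (log2 difference 0.11, adjusted p = 0.803). The remaining 3 of the list were the copper ATPase RAN1 (BGIOSGA007052, -0.14), which loads copper onto ethylene receptors in Arabidopsis, the chloroplast copper ATPase PAA1 (BGIOSGA028879, 0.11) and HMA1 (BGIOSGA020639, 0.14). PAA1, like OsHMA4, lay higher in every Fo+Cd library than in any Cd library, as did 11.3% of all tested features. OsHMA3 had the lowest level of the 6 in both groups.

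Neither of 2 cation diffusion facilitators, which export metal from the cytosol, was called by limma (0 with an unadjusted p under 0.05). BGIOSGA015395, named for its Arabidopsis counterpart metal tolerance protein C4, was at 18.3 ± 1.02 TPM without and 21.7 ± 2.16 TPM with Fo10 (SD, n = 3 each, adjusted p = 0.351). Its Fo+Cd libraries all lay above its Cd libraries, as in 11.3% of all tested features. BGIOSGA012159, a cation efflux family protein, was at 17.8 ± 1.41 and 19.9 ± 3.24 TPM (adjusted p = 0.642), with overlapping groups. The NRAMP list held 1 gene, BGIOSGA025172, which its description places in ethylene signalling (log2 difference -0.08, adjusted p = 0.715). Of the copper transporters, which bring copper into cells, 2 were tested and neither was called. BGIOSGA004529 was at 135.6 ± 15.7 TPM without and 102.4 ± 22.8 TPM with Fo10 (log2 difference -0.42, unadjusted p = 0.0429, adjusted p = 0.305), and BGIOSGA028790 at 43.1 ± 11.1 and 31.8 ± 4.39 TPM (adjusted p = 0.419). In both genes the groups overlapped.

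Nicotianamine and phytosiderophores bind iron, zinc and copper for transport within and into the plant, and this list had the highest median, 0.79. Of 5 tested genes 1 was called higher. In 4, the called gene among them, the unadjusted p was under 0.05 and every Fo+Cd library was above every Cd library. All tested features had shares of 1.72% called higher, 15.4% with such a p and 11.3% with such groups. The called gene was YSL13 (BGIOSGA014687), of the oligopeptide transporter family and described without a source. It stood at 14.0, 12.8 and 10.6 TPM in Cd replicates 1, 2 and 3 and at 27.7, 37.2 and 29.4 TPM in Fo+Cd replicates 1, 2 and 3 (log2 difference 1.26, SE 0.147, adjusted p = 0.0072). Since 91.2% of gene models described without a source were called, its place in the list goes with its call. The 4 tested genes that were not called had log2 differences of 0.09 to 1.03. In the gene at 0.09 the groups overlapped (limma unadjusted p = 0.521). The iron-phytosiderophore transporter BGIOSGA005930 had a log2 difference of 0.79 (adjusted p = 0.0783), which passed without Cd replicate 1 (adjusted p = 0.0297). Nicotianamine synthase 2 (BGIOSGA010884), which makes nicotianamine, was at 173.0, 75.3 and 138.9 TPM in Cd replicates 1, 2 and 3 and at 220.7, 254.0 and 276.1 TPM in Fo+Cd replicates 1, 2 and 3. The Cd libraries were far apart from each other, and the gene did not pass (log2 difference 1.03, SE 0.297, adjusted p = 0.168).

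Glutathione is the building block of phytochelatins, the peptides that bind cadmium. Of 3 glutathione synthetases 1 was called lower, where 0.723% of all tested features were. BGIOSGA018537 was at 38.9, 46.2 and 47.4 TPM in Cd replicates 1, 2 and 3 and at 31.1, 29.8 and 30.4 TPM in Fo+Cd replicates 1, 2 and 3. The groups did not overlap (log2 difference -0.52, SE 0.0974, adjusted p = 0.0462). The call was lost without any one library except Cd replicate 1 (adjusted p 0.0838 to 0.182). It was also lost with no filter on low values (0.0728) and in limma without trend and robust settings (0.0813). BGIOSGA037500 was at 39.4 ± 4.06 and 33.8 ± 2.86 TPM (adjusted p = 0.397). The third, BGIOSGA021907, went the other way, at 13.3 ± 0.33 TPM in Cd and 15.4 ± 0.941 TPM in Fo+Cd. It was not called (log2 difference 0.19, limma adjusted p = 0.394). Its Fo+Cd libraries all lay above its Cd libraries, as in 11.3% of all tested features. No entry matched phytochelatin synthase. None of 4 tested genes in the list of metal-binding chaperones was called by limma (0 with an unadjusted p under 0.05, median log2 difference -0.14). That list takes in BGIOSGA001928, whose description is plant cadmium resistance 10 and names no chaperone. BGIOSGA003611, of the heavy metal-associated isoprenylated proteins, was at 84.7 ± 1.06 TPM in Cd and 77.9 ± 20.03 TPM in Fo+Cd, and BGIOSGA009388, of the same family, at 30.0 ± 5.86 and 23.2 ± 4.36 TPM. The sign for BGIOSGA003611 rested on Fo+Cd replicate 1 (54.9 TPM), without which the log2 difference was 0.075 in place of -0.16.

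**Figure D4:**
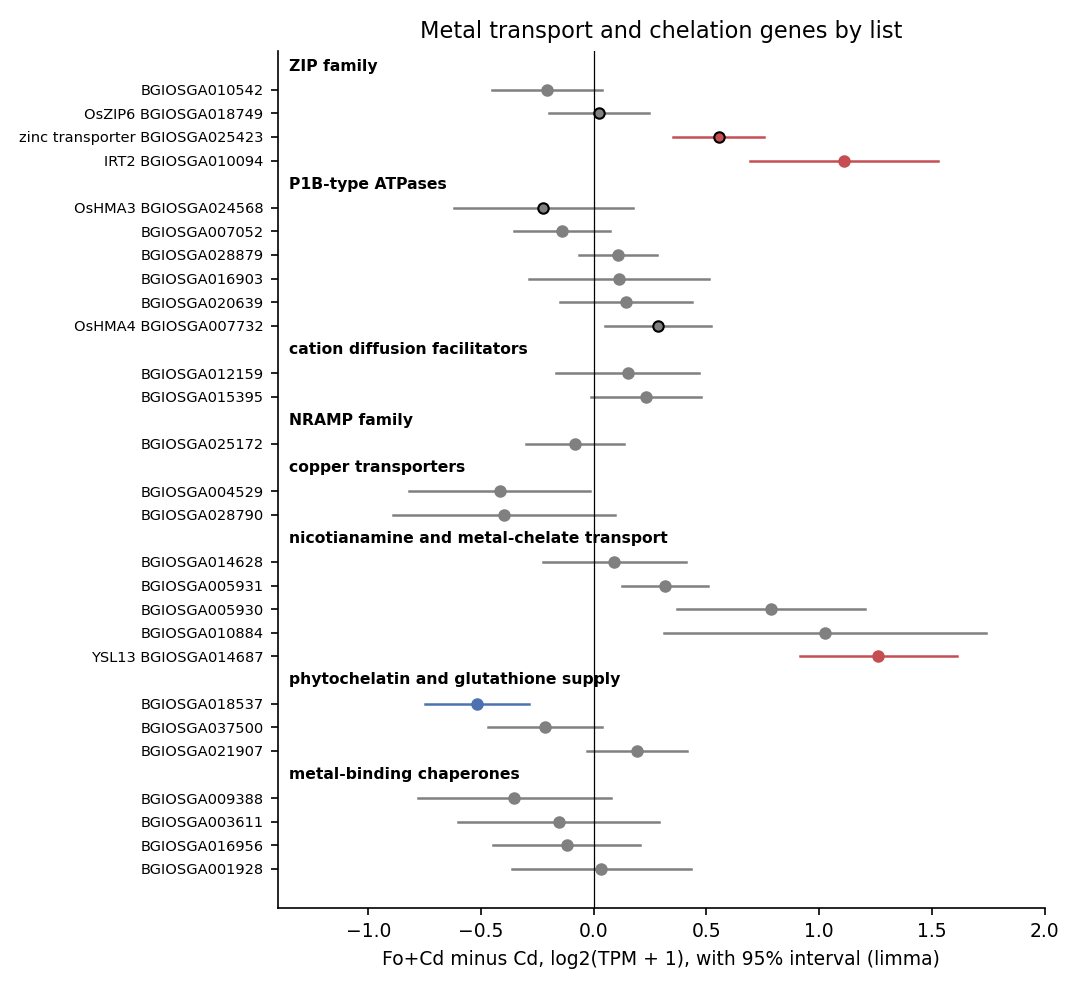
Difference between groups (Fo+Cd minus Cd, log2(TPM + 1), horizontal axis) with limma's 95% interval for the 27 tested metal genes, by list; red was called higher, blue lower and grey not called, and the 4 genes of this account have a black rim. The called genes are BGIOSGA025423 (0.55), IRT2 (1.11), YSL13 (1.26) and, lower, BGIOSGA018537 (-0.52).

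The features with the most similar pattern were sought over the 6 libraries among 4615 tested features with a name or description, by Pearson's r of log2(TPM + 1). All features share the same 6 libraries, and r is given as a description. The 4615 include gene models described without a source, of which 91.2% were called. Nearest features picked this way tend to share the gene's call, so their calls add no evidence. For BGIOSGA025423 they were a dirigent protein gene (BGIOSGA024968, r = 0.996), a gene described as disease resistance protein RGA2 (BGIOSGA037326, 0.995) and a cytochrome b5-like gene (BGIOSGA005932, 0.993), the last 2 described without a source. All 3 were called higher, and 141 features had r above 0.95. For OsHMA4 they were BGIOSGA002700 (r = 0.994), a small subunit ribosomal RNA feature (0.992) and a DETOXIFICATION family gene (BGIOSGA010395, 0.990), and 39 features had r above 0.95.

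That ribosomal RNA feature was listed at 0, 8.53 and 0 TPM in Cd replicates 1, 2 and 3 and at 15.9, 181.6 and 27.6 TPM in Fo+Cd replicates 1, 2 and 3. Libraries were made from poly(A) RNA, and Fo+Cd replicate 2 was the highest for both this feature and OsHMA4. The part of ribosomal RNA carry-over in the OsHMA4 values was not tested. For OsHMA3 the nearest were an S-acyltransferase (BGIOSGA019980, r = 0.980), a beta-glucuronosyltransferase (BGIOSGA011004, 0.960) and a glutamate receptor (BGIOSGA009174, 0.954). For OsZIP6 they were a 3-ketoacyl-CoA synthase (BGIOSGA032270, r = 0.969), a ferredoxin (BGIOSGA013247, 0.967) and an auxin-responsive protein (BGIOSGA009237, 0.955). None of the 6 nearest features of OsHMA3 and OsZIP6 was called, and 5 and 3 features had r above 0.95.

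**Figure D5:**
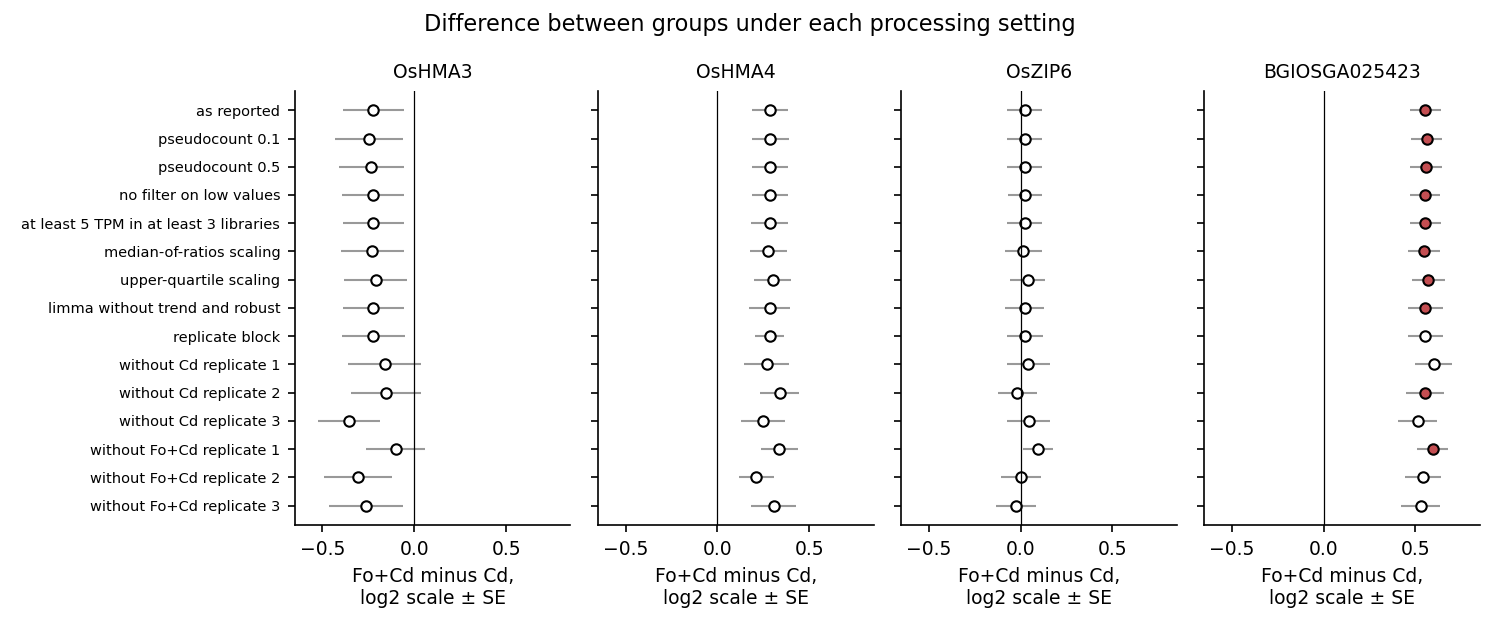
Difference between groups (Fo+Cd minus Cd, log2 scale, horizontal axes, with the SE) for the 4 genes as reported and under 14 other settings (vertical axis); filled points have an adjusted p under 0.05. BGIOSGA025423 stays between 0.51 and 0.60 and loses its call in 5 settings, OsHMA4 stays above 0 and OsHMA3 below it without a call, and OsZIP6 changes sign without Cd replicate 2 or Fo+Cd replicate 3.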

How the data were processed

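The deposited table gives TPM for 6 libraries. The unit was recognised from the values (2 decimals, totals of 963281 to 966767), and the authors name no unit in the file. RNA was isolated with TRIzol and made into stranded poly(A) libraries, per the labels' protocols. Neither aligner nor counter nor genome build is given in the sources used here, so no coordinates are printed. Reads shared between close family members could blur single genes. The authors' mean column per group was not used.

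Values were log2(TPM + 1) of features reaching 1 TPM in 3 or more libraries, fitted with limma 3.58.1 in R 4.3.3 (trend and robust, no covariate, Benjamini-Hochberg over all tested features, called under 0.05) and checked on simulated data. TPM + 1 understates changes of low genes. Pairs of genes were compared by exact two-sided permutation in scipy 1.17.1. The 4 genes and the lists were chosen with earlier results of these data known. Lists were matched on names and descriptions (a TPR repeat protein named ZIP4 was left out, and P-type wording was allowed for heavy metal ATPases). The text names the 4 genes, the called genes of each list, the 2 most abundant and the 3 features most like each gene. The remaining P1B-type ATPases, BGIOSGA021907, BGIOSGA001928 and the genes below the filter were named for completeness, after their values were seen. Alternatives were other pseudocounts, filters, scalings and limma settings, a replicate block, and each library left out.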

Additional observations from a re-analysis of the deposited data

How the results depend on the processing

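The directions of OsHMA3, OsHMA4 and BGIOSGA025423 held under all 14 alternatives, and those of the 6 pairs under the 8 run for them. Leaving out 1 library gave log2 differences of -0.35 to -0.10 for OsHMA3, 0.21 to 0.34 for OsHMA4, -0.027 to 0.095 for OsZIP6 and 0.51 to 0.60 for BGIOSGA025423. OsZIP6 turned negative without Cd replicate 2 (-0.018) and without Fo+Cd replicate 3 (-0.027), and BGIOSGA003611 ranged from -0.29 to 0.075. Calls over all features ranged from 189 to 726 and those among the metal genes from 1 to 3, against 518 and 4 with all libraries. Without Cd replicate 2, 50.6% of the calls were higher, and without Cd replicate 3, 89.2%, against 70.5%. The cause was not tested. Under the other scalings the median of all features was 0.00 and 0.02. Deviations from the group mean had correlations of -0.0325, 0.0847 and 0.0734 between same-numbered libraries. Between libraries of unlike number they were -0.12 to 0.0689. Such values cannot settle whether replicate numbers pair the samples. With the replicate block the log2 difference of BGIOSGA025423 was 0.55 (adjusted p = 0.08), 2 metal genes were called, and BGIOSGA018537 had an adjusted p of 0.109. Over all features the block left 353 calls. Unknown depth limits what can be said of OsHMA3, the gene nearest the filter.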

Other observations

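The database entries cited for OsHMA3 and for the zinc transporter BGIOSGA025423 follow each other directly in UniProt's accession order. The table gives no coordinates, and whether the genes lie next to each other in this genome was not tested.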
